A study of Drosophila melanogaster with 8 samples.

Results

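Scavenger receptors are surface or secreted proteins that bind polyanionic ligands, microbial surfaces and dying cells. The 9 genes described here are the class C receptors Sr-CI, Sr-CII, Sr-CIII and Sr-CIV and the CD36-like class B receptors crq, emp, pes, ninaD and santa-maria, chosen by name and matched to their FlyBase identifiers. All 9 were among the 11769 genes in the count table, and 7 had enough reads to be tested for a diet difference. The RNA came from macrophages (hemocytes) of Drosophila melanogaster larvae of the last instar at 96 h after egg laying, labelled wild-type and carrying hmlΔ>2xeGFP, in which a fragment of the Hemolectin (Hml) promoter marks hemocytes with GFP. Larvae were fed a sucrose-yeast medium as the control diet (CD) or that medium with a 10x sucrose supplement as the high-sugar diet (HSD). Hemocytes of 5 larvae were bled per collection, 20000 GFP-positive cells were sorted per replicate, and poly(A) RNA was sequenced in 4 libraries per diet, numbered 1, 3, 4 and 5 on CD and 1 to 4 on HSD. Only cells positive for the GFP of the Hml reporter were in the gate, and all libraries carry that reporter. The labels do not say whether replicates came from separate cultures or sorts, so each p-value is set against a spread between libraries that can be technical in part.

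Class C receptors are known only from insects, and Sr-CI binds bacteria and takes part in their uptake by fly hemocytes. Class B receptors are relatives of mammalian CD36, with a large extracellular loop held by a membrane span at each end, and bind lipids, carotenoids, microbes or apoptotic cells. In larval macrophages both classes are studied as routes by which bacteria, cell corpses and lipid cargo enter the cell.

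Total counts per library ran from 20817891 to 24733521. CD replicate 1 and HSD replicate 4 lay farthest from the other libraries of their diet, with a median absolute log2 distance over genes of 0.151 and 0.121, against 0.0720 to 0.0923 in the other 6 libraries. The plasmatocyte marker Hml stood at 16886 ± 1921 CPM on CD and 20793 ± 1794 CPM on HSD (read counts scaled to a common library size with TMM factors, counts per 1e6, mean ± SD, n = 4 here and throughout). Crystal cell transcripts were abundant as well. PPO1 stood at 9582 ± 719 CPM on CD and 14316 ± 2475 CPM on HSD. PPO2, chosen after its values were seen, stood at 16119 ± 1288 and 24819 ± 4478 CPM. The fat body gene Lsp2 stood at 0.724 ± 0.614 and 0.174 ± 0.0981 CPM and the muscle gene Mhc at 1.08 ± 0.335 and 1.69 ± 0.346 CPM. Over all genes tested for a diet difference 14.4% were higher and 11.6% lower on HSD, the shares beside which the marker counts below stand. Of 8 plasmatocyte markers 5 were higher and none lower on HSD (2 higher and 1 lower when libraries were scaled by their size alone, and 3 higher when HSD replicate 1, 2 or 3 was left out), and their sum was 52589 to 60815 CPM on CD and 67589 to 77960 CPM on HSD. The 5 crystal cell markers, lz and PPO1 among them, summed to 22855 to 27020 CPM on CD and 29230 to 44555 CPM on HSD, with 4 higher. Of the 6 lamellocyte markers 4 were higher: atilla went from 0.204 ± 0.291 to 6.04 ± 1.71 CPM, ItgaPS4 from 0.0218 ± 0.0437 to 3.26 ± 1.79 CPM, PPO3 from 10.4 ± 0.932 to 17.6 ± 3.20 CPM and mthl4 from 12.4 ± 0.689 to 18.7 ± 0.855 CPM, each without overlap (the last 3 were chosen after their values were seen). The lamellocyte sum, 1018 to 1450 and 1208 to 1533 CPM, overlapped, and cher and shot, which were not called, held most of it. The 5 lymph gland markers summed to 837 to 887 and 1294 to 1402 CPM with 2 higher. Muscle markers summed to 31.3 to 54.4 and 90.2 to 115.4 CPM, of which bt, the 1 of 8 called, held 32.9 ± 9.18 and 89.5 ± 10.8 CPM, and the other 7 summed to 11.6 to 13.8 and 11.9 to 16.9 CPM and overlapped. Fat body markers summed to 15.5 to 76.1 and 15.5 to 24.0 CPM, tracheal and epidermal markers to 9.52 to 13.5 and 7.71 to 12.6 CPM, neuron and glia markers to 14.9 to 19.8 and 16.2 to 21.5 CPM and midgut markers to 0.0437 to 0.237 and 0.179 to 0.647 CPM. No gene of these last 4 lists was called in the edgeR fit with TMM scaling and the low-count filter. None of the midgut markers was tested. With libraries scaled by their size alone, edgeR called Lsp1alpha and moody lower (adjusted p = 0.0479 and 0.0205). Without the low-count filter it called 1 neuron and glia gene higher. DESeq2 called Lsp1alpha lower (adjusted p = 0.0177) and limma-voom called serp higher (adjusted p = 0.0276). Fbp1 and brp were not tested but separated the diets, Fbp1 lower and brp higher on HSD. Of the marker genes in the count table, only the cuticle gene Cpr49Aa was at 0 in all libraries of a diet, HSD. The listed midgut genes betaTry, lambdaTry, Npc1b and Mur89F and the epidermal gene Tb were not in that table.

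The 3 tested class C receptor genes were higher on the high-sugar diet. The tested class B genes named above, apart from pes, were not shown to be. A rise was not particular to class C in the wider CD36-like family. Of its 3 other tested genes, CG3829 and CG40006 rose by 1.19 and 0.67 and CG2736 fell by 2.06 on the log2 scale. Sr-CI, Sr-CIII and Sr-CIV rose and so did the class B gene pes, which makes 4 of 7 tested members higher, none lower and 3 not past an adjusted p of 0.05 (edgeR quasi-likelihood test, adjusted over all genes). The pes call was lost under 8 of 16 alternative processing choices, among them scaling by library size alone. Across the 7844 genes tested 14.4% were higher, 11.6% lower and 26% called in either direction. All 3 tested class C members rose, with a median log2 fold change of 0.46, whereas 1 of 4 tested class B members did, with a median of 0.02. The median over all tested genes was −0.01. With library size alone as the scaling these medians were 0.30, −0.14 and, over all genes, −0.17. The class B median depends on the scarce genes emp and santa-maria. A filter of 5 CPM in 4 libraries left only crq and pes of that class. The class B median was then 0.21 and the class C median 0.47. In the 3 class C genes all HSD values exceeded all CD values, which held for 15.1% of all tested genes, while 12.9% had all HSD values below and 28% separated the diets either way. No tested class B gene separated the diets. Because the cells were measured in bulk, more cells of a type and more RNA per cell cannot be told apart. The sums of plasmatocyte, crystal cell and lymph gland markers, the 4 lamellocyte markers atilla, ItgaPS4, PPO3 and mthl4, and the muscle gene bt separated the diets as well, upward on HSD, and their part in these differences was not tested.

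**Figure D1:**
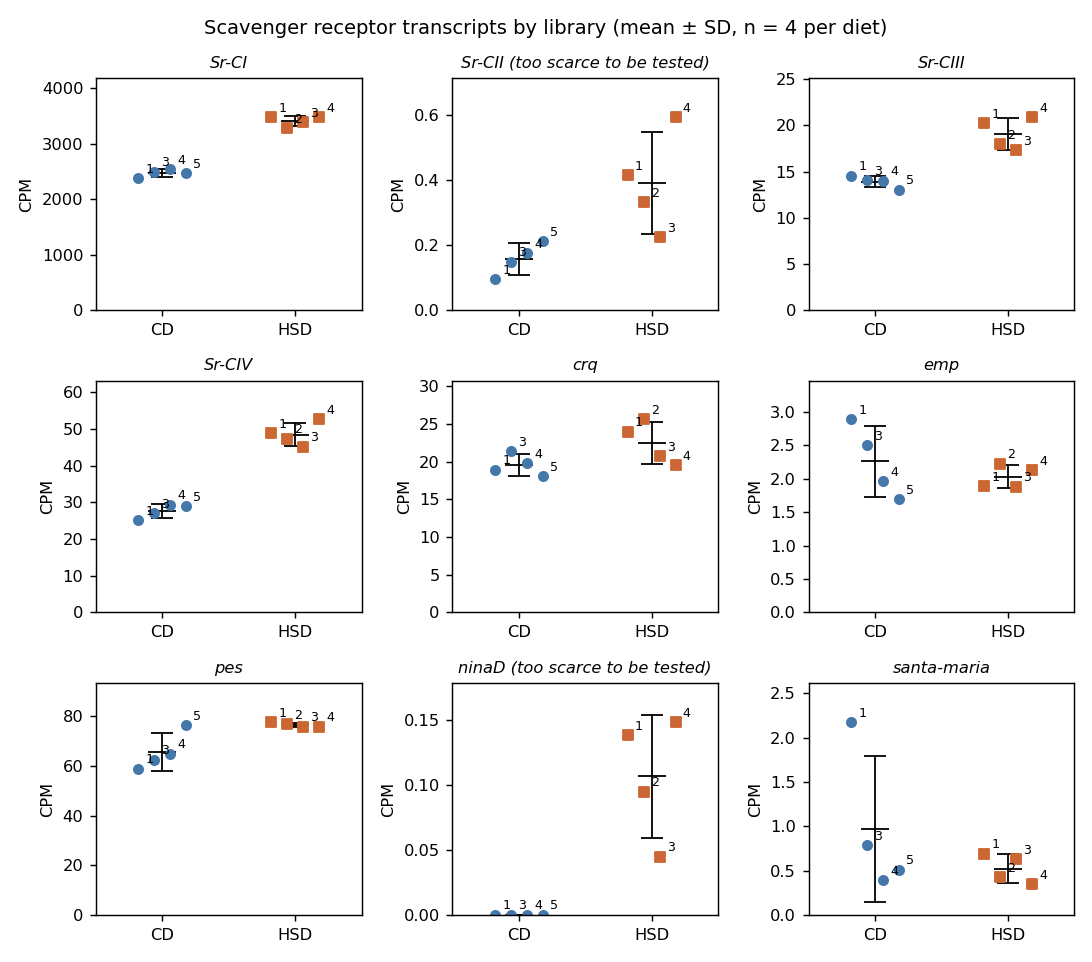
CPM of each receptor gene (vertical axis, linear from 0) in each CD library (circles) and HSD library (squares), numbered by replicate, with the mean and SD of 4 libraries. Sr-CI, Sr-CIII and Sr-CIV separate the diets, with Sr-CI at 2378 to 2540 CPM on CD and 3279 to 3481 CPM on HSD, and santa-maria has 1 high library, CD replicate 1 at 2.18 CPM.

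Sr-CI (FBgn0014033) was by far the most abundant of the 9 genes. It lies on chromosome 2L from 4121702 to 4124153 on the plus strand of dm6, with 2202 bases of exon in 4 blocks. Its level was 2378, 2496, 2540 and 2471 CPM in CD replicates 1, 3, 4 and 5 and 3477, 3279, 3392 and 3481 CPM in HSD replicates 1 to 4. The diets did not overlap, and the lowest HSD library was 1.29-fold above the highest CD library. The gene rose 1.38-fold (log2 fold change 0.46 with a 95% interval of 0.37 to 0.56 and a standard error of 0.0440; adjusted p = 7.92e-06, edgeR). Sr-CI reads made up 0.241% to 0.271% of each CD library and 0.306% to 0.329% of each HSD library. By level per kilobase of exon it ranked 114th of 11698 genes on CD and 99th on HSD. Its spread was small, with an SD of 2.75% of the mean on CD and 2.79% on HSD, although counting error alone would give 0.414% and 0.371%.

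Sr-CIII (FBgn0020376) is the direct neighbour of Sr-CI. It lies on the same strand from 4120343 to 4121627, ending 74 bases before the start of Sr-CI, and is a shorter relative. It stood at 14.5, 14.1, 14.0 and 13.0 CPM in CD replicates 1, 3, 4 and 5 and at 20.2, 18.0, 17.3 and 20.9 CPM in HSD replicates 1 to 4. All HSD libraries were above all CD libraries, with HSD replicates 1 and 4 the highest. The rise was 1.37-fold (0.46 on the log2 scale with a standard error of 0.0780; adjusted p = 0.000887, edgeR). The adjoining genes had similar fold changes at very different levels.

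Sr-CIV (FBgn0031547) had the largest fold change among the tested receptors that were called. It sits apart from that pair on 2L, from 3522521 to 3524056 on the minus strand, 596286 bases from Sr-CIII, and is also a shorter relative of Sr-CI. Its level was 25.1, 27.0, 29.3 and 28.9 CPM in CD replicates 1, 3, 4 and 5 and 48.8, 47.3, 45.1 and 52.5 CPM in HSD replicates 1 to 4. The lowest HSD library stood 1.54-fold above the highest CD library. The gene rose 1.76-fold (0.81 on the log2 scale with a 95% interval of 0.66 to 0.96 and a standard error of 0.0675; adjusted p = 2.67e-06, edgeR). Its exons share 2.52% of their length with CG8851 on the opposite strand, a gene at 0.0504 CPM on CD and 0.0711 CPM on HSD.

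Sr-CII (FBgn0020377), on chromosome 2R from 12208893 to 12212155 on the minus strand, was close to absent and was not tested. It had 2, 4, 4 and 5 counts in CD replicates 1, 3, 4 and 5 and 9, 7, 5 and 12 counts in HSD replicates 1 to 4. The summed 33 HSD counts against 15 CD counts give a ratio of 2.44 after scaling, with an exact 95% interval of 1.29 to 4.83 that covers counting error alone, as reads copied by PCR cannot be recognised in these counts. In CPM the lowest HSD library, at 0.224, was just above the highest CD library, at 0.212. With no low-count filter its adjusted p was 0.108 (edgeR). Nearly all class C reads were from Sr-CI, which held 98.3% to 98.4% of class C reads on CD and 97.9% to 98.2% on HSD.

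The balance among the class C genes was examined through ratios within each library, which do not depend on how libraries are scaled. Sr-CIV per kilobase stood at 1.67%, 1.71%, 1.83% and 1.85% of Sr-CI in CD replicates 1, 3, 4 and 5 and at 2.22%, 2.28%, 2.11% and 2.39% in HSD replicates 1 to 4. All HSD ratios exceeded all CD ratios, a 1.27-fold difference (log2 difference 0.35). The exact two-sided permutation p was 0.0286, the smallest that 4 libraries against 4 allow, and 0.0857 after adjustment over the 6 ratios computed. The difference did not pass, but from that smallest p a ratio could pass only if most of the 6 separated the diets. The adjusted value therefore cannot decide whether this ratio differed. Sr-CIII per kilobase was 1.152%, 1.06%, 1.04% and 0.995% of Sr-CI on CD and 1.10%, 1.03%, 0.963% and 1.13% on HSD. These values overlapped, with a log2 difference of −0.01 that lay between −0.04 and 0.03 as each library was left out (exact permutation adjusted p = 0.886). How reads that map to more than 1 gene were counted is not stated in the labels, so reads shared between these relatives could not be assessed.

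**Figure D2:**
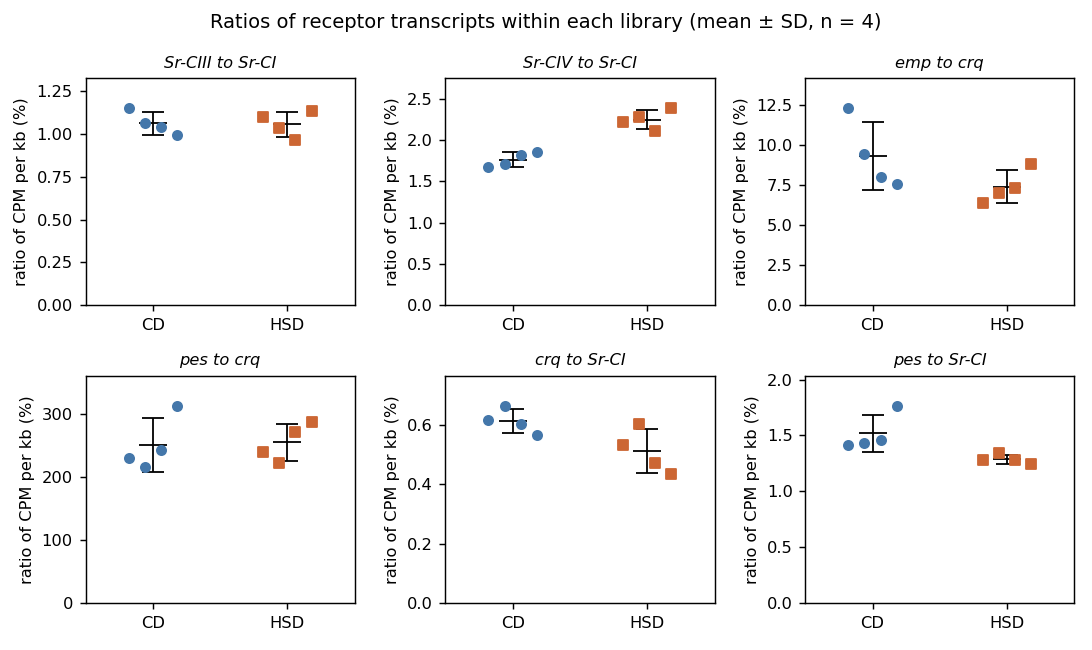
Ratio of CPM per kilobase of exon within each library, in percent (vertical axes from 0), for 6 gene pairs on CD (circles) and HSD (squares), with mean and SD of 4 libraries. Sr-CIV relative to Sr-CI is higher in every HSD library, Sr-CIII relative to Sr-CI overlaps between the diets, and pes relative to Sr-CI is lower in every HSD library.

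Of the class B genes, pes (peste, FBgn0031969), a receptor needed for mycobacteria to enter cultured fly cells, was the most abundant. It lies on 2L from 7986786 to 7994184 on the minus strand, beside the CD36-like gene CG7227 at a distance of 203 bases. Its level was 58.9, 62.4, 64.8 and 76.2 CPM in CD replicates 1, 3, 4 and 5 and 77.7, 76.7, 75.7 and 75.8 CPM in HSD replicates 1 to 4. CD replicate 5 lay within the HSD range, so the diets overlapped, and the HSD libraries varied by 1.17% of their mean where counting error alone would give 2.48%. CG7231, whose end meets that of pes on the opposite strand with 0 bases between them, was also highest in CD replicate 5, at 3.22 CPM against 0.784 to 1.53 CPM in the other 7 libraries, and its part in the pes counts was not tested. pes rose 1.17-fold (0.22 on the log2 scale with a standard error of 0.0711; adjusted p = 0.0372, edgeR). The call was lost without CD replicate 3 or 4 (adjusted p = 0.114 and 0.0847) and without any single HSD library (for replicates 1 to 4, 0.0875, 0.0800, 0.0709 and 0.0542), and when libraries were scaled by their size alone, where the log2 fold change was 0.055 (adjusted p = 0.584; over all alternatives 0.00251 to 0.584).

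crq (croquemort, FBgn0015924) is the CD36-like receptor through which embryonic macrophages take up apoptotic cells. It spans 448254 to 453024 on the minus strand of 2L. Its level was 18.9, 21.4, 19.8 and 18.0 CPM in CD replicates 1, 3, 4 and 5 and 24.0, 25.6, 20.7 and 19.5 CPM in HSD replicates 1 to 4. HSD replicates 1 and 2 were above all CD libraries, while HSD replicates 3 and 4 lay within the CD range. The log2 fold change of 0.20 had a 95% interval of 0.0022 to 0.40 and did not pass (edgeR adjusted p = 0.129). It passed without HSD replicate 4 (log2 fold change 0.26, adjusted p = 0.0476) and without that library and CD replicate 1 together (0.25, adjusted p = 0.0407), an alternative added after seeing the data. Its adjusted p over the alternatives lay between 0.0407 and 0.785. The exons of crq share 15.7% of their length with ex on the opposite strand. The library kit was not described as strand-specific, so reads of the shared part cannot be assigned, and ex stood at 62.4 ± 6.39 CPM on CD and 56.0 ± 3.03 CPM on HSD.

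emp (epithelial membrane protein, FBgn0010435), named for its expression in epithelia, was scarce. It lies on 2R from 24976456 to 24986070 on the minus strand. It stood at 2.89, 2.50, 1.97 and 1.69 CPM in CD replicates 1, 3, 4 and 5 and at 1.89, 2.23, 1.88 and 2.13 CPM in HSD replicates 1 to 4, so the HSD libraries lay inside the CD range. The log2 fold change was −0.15 with a 95% interval of −0.60 to 0.29 (edgeR adjusted p = 0.625), and −0.02 without CD replicate 1 (adjusted p = 0.964; over all alternatives 0.207 to 0.964).

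The carotenoid transporters were at the limit of detection. santa-maria (FBgn0025697), which carries carotenoids into cells of the fly head for visual pigment synthesis, lies on 2L from 7445355 to 7451244 on the minus strand. It had 46, 21, 9 and 12 counts in CD replicates 1, 3, 4 and 5 and 15, 9, 14 and 7 counts in HSD replicates 1 to 4. CD replicate 1, at 2.18 CPM, was the highest library and the other CD libraries, at 0.393 to 0.784 CPM, overlapped HSD at 0.347 to 0.693 CPM. The log2 fold change of −0.85 did not pass (95% interval −1.98 to 0.29, edgeR adjusted p = 0.264) and was −0.10 without CD replicate 1 (adjusted p = 0.866; over all alternatives 0.126 to 0.949). Fat body markers summed to 46.9 CPM in CD replicate 1 and 76.1 CPM in CD replicate 3, against 15.5 to 24.0 CPM in the other 6 libraries, and their part in the santa-maria counts was not tested. The exons of santa-maria share 9.49% of their length with CG5973 on the opposite strand, an abundant gene at 231 to 262 CPM on CD and 279 to 285 CPM on HSD.

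ninaD (FBgn0002939), needed in the gut for carotenoid uptake from food, lies on 2L from 18081628 to 18083608 on the plus strand. It had 0 counts in every CD library and 3, 2, 1 and 3 counts in HSD replicates 1 to 4. After scaling, the summed 9 HSD counts were 3.32-fold above the 3 counts that a CD sum of 0 allows, equal to 0.0318 CPM. This value covers the counting error of the CD sum only. It takes the HSD sum as exact and so is not a lower bound on the difference. The gene was not tested, and with no low-count filter its adjusted p was 0.0306 (edgeR).

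**Figure D3:**
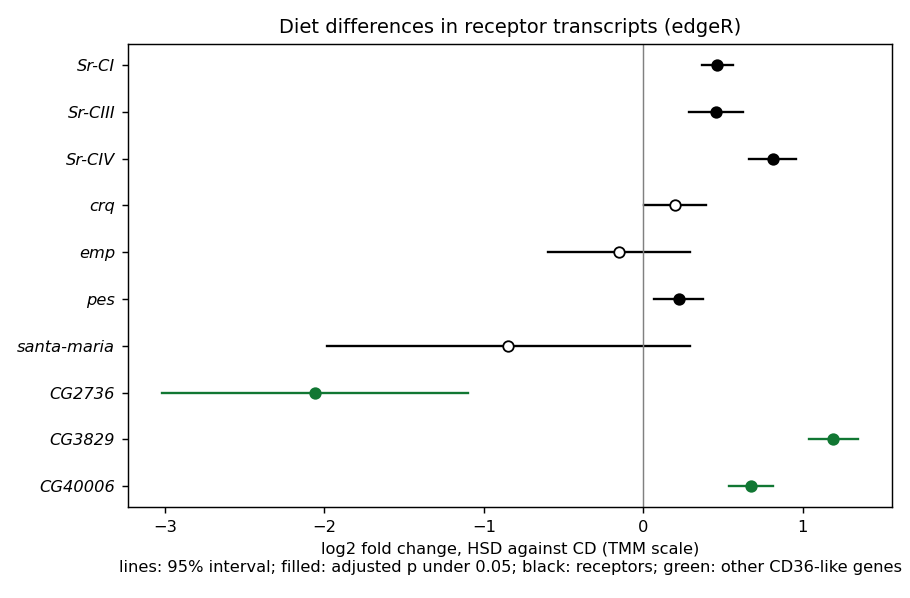
Log2 fold change of HSD against CD (horizontal axis) with its 95% interval for the 7 tested receptors (black) and 3 other CD36-like genes (green), filled where the edgeR adjusted p is under 0.05. The class C genes lie between 0.46 and 0.81, pes and crq near 0.2, and the intervals of emp and santa-maria span 0.

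Compared per kilobase of exon, the 9 genes covered a wide range. On CD Sr-CI stood at 1122 ± 30.9 CPM per kilobase, followed by Sr-CIV at 19.8 ± 1.37, pes at 17.1 ± 1.95, Sr-CIII at 11.9 ± 0.537, crq at 6.87 ± 0.507, emp at 0.642 ± 0.152, santa-maria at 0.174 ± 0.148 and Sr-CII at 0.0665 ± 0.0208 CPM per kilobase, with ninaD at 0 counts. On CD the neighbours Sr-CIV and pes overlapped, as did santa-maria and Sr-CII, and the other neighbours with counts did not. On HSD Sr-CIV, at 34.8 ± 2.25 CPM per kilobase, no longer overlapped pes at 19.9 ± 0.232, pes did not overlap Sr-CIII at 16.4 ± 1.48, and the levels of Sr-CII, santa-maria and ninaD overlapped in that order. Sr-CI alone gave 95.02% to 95.3% of the summed level of the 9 genes per kilobase on CD and 94.9% to 95.4% on HSD. The 5 class B genes together summed to 23.2 to 26.7 CPM per kilobase on CD and 27.3 to 29.7 on HSD.

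Whether class B and class C genes moved differently was examined by ratios chosen after their values had been seen. pes relative to Sr-CI was lower in every HSD library, with a log2 difference of −0.24 (exact permutation p = 0.0286, adjusted p = 0.0857). crq relative to Sr-CI overlapped between the diets, with a log2 difference of −0.27 (exact permutation p = 0.0857, adjusted p = 0.171). Neither passed after adjustment, and the ratio of pes to Sr-CI, already at the smallest p that 4 libraries against 4 allow, could not have passed alone. Within class B the ratio of pes to crq differed by 0.03 and that of emp to crq by −0.32 on the log2 scale (exact permutation adjusted p = 0.886 and 0.214), so no difference between members of the class was shown either.

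Other members of the CD36-like family were examined beside the class B genes named above. Of 9 listed, 5 were in the table and 3 were tested, with a median log2 fold change of 0.67. Of these 2 rose and 1 fell, beside 14.4% higher and 11.6% lower over all genes. CG3829, which adjoins emp and overlaps 0.767% of its exons on the opposite strand, stood at 30.5, 25.2, 27.9 and 26.1 CPM in CD replicates 1, 3, 4 and 5 and at 63.8, 58.1, 61.2 and 67.0 CPM in HSD replicates 1 to 4. It rose by a log2 fold change of 1.19 (edgeR adjusted p = 2.02e-07). CG2736, the neighbour of emp on its other side at 1114 bases, had 11, 21, 15 and 15 counts on CD and 2, 1, 5 and 5 on HSD, and fell by 2.06 on the log2 scale (edgeR adjusted p = 0.00402). This run of 3 adjoining family genes thus held 1 that rose, 1 that fell and emp, which did not pass. CG40006 rose from 30.7 ± 1.32 to 49.0 ± 3.43 CPM (log2 fold change 0.67, edgeR adjusted p = 7.06e-06). Snmp1 and CG7227 were too scarce to test, with means of at most 0.239 CPM.

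**Figure D4:**
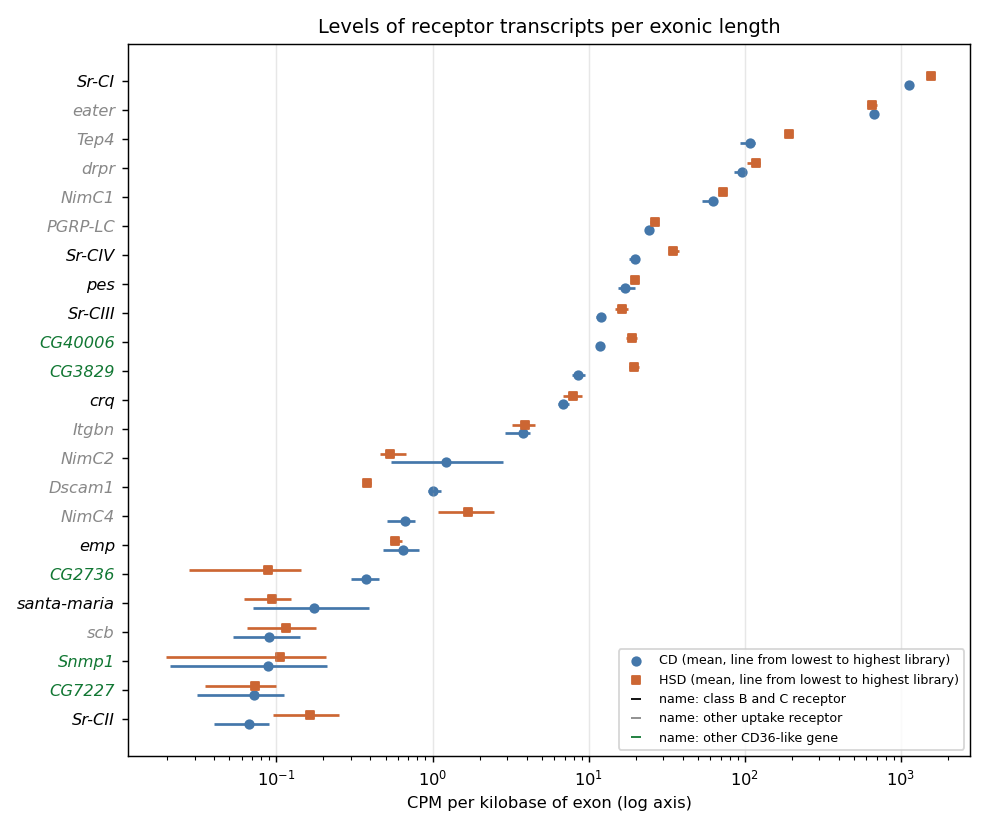
Mean CPM per kilobase of exon (log axis) on CD (circles) and HSD (squares), with lines from the lowest to the highest library, for the receptors (black names), other uptake receptors (grey) and other CD36-like genes (green) with counts on both diets. Sr-CI stands highest, above eater, and CG3829 and CG40006 exceed crq on both diets.

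Other uptake receptors gave a point of reference. Sr-CI, at 1547 ± 43.2 CPM per kilobase on HSD, was above eater, a Nimrod receptor for bacteria, at 675 CPM per kilobase on CD and 647 on HSD (eater was chosen after its values were seen). The log2 fold change of eater was −0.06 (adjusted p = 0.438, edgeR), and −0.22 with size-only scaling, where it was called lower (adjusted p = 0.0026). Of the 10 tested genes of this list 4 rose and 1 fell, with a median of 0.18, beside the same 14.4% and 11.6% over all genes. Under size-only scaling 2 were higher and 2 lower, with a median of 0.01. The complement-like gene Tep4, also in the lymph gland list, rose by 0.84, the apoptotic cell receptor gene NimC4 by 1.33 from 0.858 to 2.16 CPM, and the engulfment receptor gene drpr by 0.30 on the log2 scale, while Dscam1, an immunoglobulin-family receptor gene, fell by 1.40 on that scale (edgeR adjusted p = 1.94e-06, 0.00365, 0.00869 and 1.77e-07). The drpr call was lost with size-only scaling (adjusted p = 0.191).

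Genes of corpse clearance listed beside crq, among them genes of store-operated calcium entry and phagosome maturation, were higher in 5 of 11 tested cases and lower in none. Over all genes 14.4% were higher and 11.6% lower. The median log2 fold change of the list was 0.15. The engulfment receptor gene drpr is counted both here and among the uptake receptors. Size-only scaling left 1 higher and 2 lower with a median of −0.01, so this direction rests on the TMM scale. Leaving out HSD replicate 1 or 2 left 3 higher. The largest difference was in CtsL1, which encodes the lysosomal protease cathepsin L and rose from 1288 ± 53.1 to 1923 ± 131 CPM (log2 fold change 0.58, edgeR adjusted p = 1.13e-05). It was called higher under every alternative run. The endoplasmic reticulum calcium sensor gene Stim had a log2 fold change of 0.22 and the junctophilin gene jp of 0.20 (edgeR adjusted p = 0.00265 and 0.0230, and 0.412 and 0.691 with size-only scaling). The jp call was also lost when CD replicate 4 was left out, and for each of HSD replicates 1 to 3 (adjusted p up to 0.0801).

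Of the carotenoid and retinoid genes listed with ninaD and santa-maria, pinta, a retinoid-binding protein gene, was tested. It stood at 49.2 ± 1.95 CPM on CD and 61.6 ± 4.55 CPM on HSD (log2 fold change 0.32, edgeR adjusted p = 0.00179), a call lost with size-only scaling (adjusted p = 0.0759). ninaB, whose enzyme cleaves carotenoids, and ninaG were near absent, at means of at most 0.156 CPM. Among other genes with scavenger receptor cysteine-rich domains, the protease gene Corin rose by 1.08 on the log2 scale (edgeR adjusted p = 1.30e-05), while the protease gene teq fell by 0.39 and the lysyl oxidase gene Loxl1 by 0.59 (edgeR adjusted p = 0.00914 and 0.0238). The Loxl1 call was lost on leaving out any of CD replicates 3, 4 and 5 or HSD replicates 1 and 4 (adjusted p up to 0.0740).

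**Figure D5:**
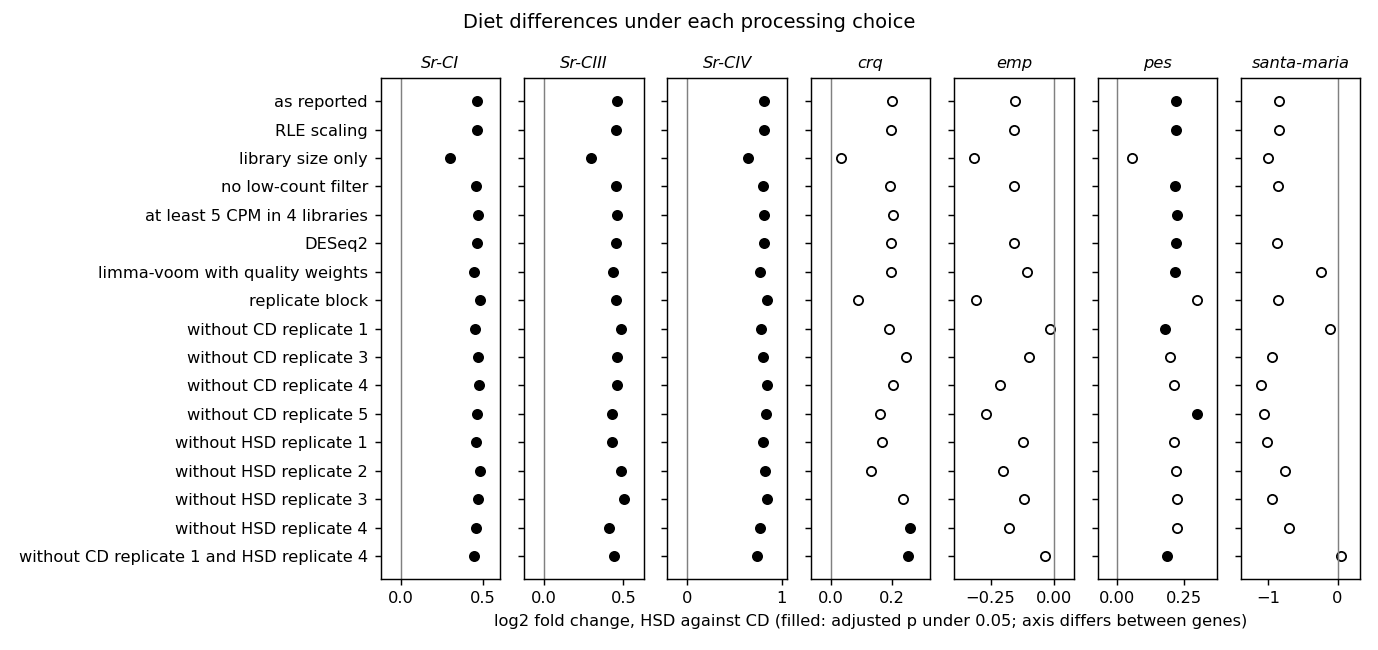
Log2 fold change of HSD against CD (horizontal axes, which differ between genes) for each tested receptor under each processing choice, filled where the adjusted p is under 0.05. Sr-CI, Sr-CIII and Sr-CIV are called in every row, pes in some, and santa-maria moves to near 0 in the rows without CD replicate 1.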

How the data were processed

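For 8 libraries the authors deposited raw read counts per gene. The submitters' processing notes name Trim Galore 0.6.7 for trimming, STAR 2.7.10a and the build dm6 for alignment, and featureCounts. Its strand setting and its rule for multiply mapped reads are not stated there. Gene symbols, positions and the lengths of merged exons were read from Ensembl release 115 of that assembly, in which 11698 of 11769 identifiers were found. No sequence was used.

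Counts were tested with edgeR 4.0.16 in R 4.3.3 (filterByExpr with a minimum count of 10, TMM, robust quasi-likelihood, diet as the only term, Benjamini-Hochberg over 7844 genes, threshold 0.05). The filter kept 99.957% of the counts. CPM were computed on TMM-scaled library sizes. The fit was tested on simulated data with known changes. Ratios used genes with at least 10 counts in every library and exact permutation tests over libraries, adjusted over 6 ratios. Fold changes are relative to the TMM scale: scaling by library size alone moved the median of all genes by −0.16 (log2). The libraries carry 1 batch label. No libraries of a diet were duplicates: chi-square per degree of freedom between them was 7.67 to 128.

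The members, gene lists, the rule for named genes and the tests were chosen with earlier results of these data known. Named were all 9 receptors, up to 4 genes with the smallest p per related list with ninaB, drpr and jp, the 2 genes most alike in profile to each tested receptor, and the markers Hml, lz, PPO1, atilla, Lsp2 and Mhc. Alternatives were RLE scaling, library size only, no filter, a filter of 5 CPM in 4 libraries, DESeq2 1.42.0, limma-voom (limma 3.58.1) with quality weights, a replicate block, each library left out and, added after seeing the data, CD replicate 1 and HSD replicate 4 left out together.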

Additional observations from a re-analysis of the deposited data

How the results depend on the processing

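Sr-CI, Sr-CIII and Sr-CIV were higher past the threshold under all 16 alternatives, with log2 fold changes of 0.30 to 0.48, 0.29 to 0.50 and 0.65 to 0.85, the lowest of each when libraries were scaled by size alone. The count of receptors called was 3 to 5 higher and 0 lower. For pes the call was lost with library size only (0.055, adjusted p = 0.584), with a replicate block (0.30, adjusted p = 0.0612) and without 6 of the 8 libraries, with values of 0.18 to 0.30 as each was left out. crq ran from 0.13 to 0.26 with single libraries left out and passed in 1 of 8, and also without CD replicate 1 and HSD replicate 4 together (0.25). In that last setting santa-maria reversed to 0.043 without passing (adjusted p = 0.949). With single libraries left out it ran from −1.10 to −0.10. The stricter filter left emp and santa-maria untested. Over all genes, 1128 were higher and 912 lower; library size only gave 690 and 3161, the replicate block 589 and 253, limma-voom 1503 and 1453, and single libraries left out 929 to 1408 and 660 to 1223. Same-numbered libraries of the diets did not deviate together (r = −0.18, −0.09 and −0.21 for replicates 1, 3 and 4). The labels do not say what the numbers stand for, and so few pairs cannot exclude a shared collection or sort. The replicate block moved no other receptor call. It left 1 higher among the corpse clearance genes listed beside crq, 1 higher and 1 lower among uptake receptors, and 2 higher each among plasmatocyte and crystal cell markers. Of the other genes given as called, CG2736, NimC4, drpr, Stim, jp, pinta, Loxl1 and bt lost the call under it (adjusted p = 0.0617, 0.0689, 0.149, 0.137, 0.22, 0.0603, 0.0832 and 0.0618), with log2 fold changes of −1.79, 1.32, 0.30, 0.22, 0.21, 0.34, −0.57 and 1.51 that were close to those without it. Without a library the ratios of Sr-CIV and pes to Sr-CI were 0.32 to 0.38 and −0.27 to −0.16; 4 libraries against 3 allow no exact p below 0.0571. The causes of these changes were not tested. Depth limits what can be said of Sr-CII and ninaD, with at most 12 and 3 counts in a library.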

Other observations

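For each tested receptor the 2 genes with the most similar profile over the 8 libraries were found among the 6840 genes that averaged 2 CPM or more, by the root mean square difference of mean-centred log2 CPM. For Sr-CI these were mthl3, at 0.0270, and bif, at 0.0357, where the median gene differed by 0.265. mthl3 stood at 23.4 CPM on CD and 32.3 CPM on HSD and bif at 196 and 275 CPM, each called higher under every alternative run (edgeR adjusted p = 5.47e-05 and 1.26e-05). For Sr-CIV they were Chd64 (0.0470) and Acsf2 (0.0535), also called higher under every alternative (log2 fold changes 0.77 and 0.85). The genes nearest to Sr-CIII were Ugalt and CG32486 (0.0446 and 0.0487), those nearest to crq Ptp99A and Ald1 (0.0639 and 0.0644), to pes CG8435 and Dronc (0.0586 and 0.0604) and to emp MED21 and Ppat-Dpck (0.0786 and 0.0833). No gene was as close to santa-maria, whose nearest were CG6770 (0.187) and GstD5 (0.220). The likeness includes the diet difference itself and is a description.

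Protein-coding genes beside the receptors, chosen by position, did not share one direction. ed, which lies 4593 bases from Sr-CIII on its side away from Sr-CI and encodes a cell adhesion protein, fell from 76.0 ± 13.4 to 36.4 ± 6.26 CPM (log2 fold change −1.06, edgeR adjusted p = 0.00133, 4.22e-12 to 0.00673 over the alternatives). CG5958, 11838 bases from santa-maria, rose from 106 ± 12.9 to 184 ± 28.7 CPM (log2 fold change 0.79, edgeR adjusted p = 0.000633, 3.95e-11 to 0.00554 over the alternatives). shv, 83 bases from crq, had a log2 fold change of −0.05 and did not pass (adjusted p = 0.648, edgeR).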
